A study of Rattus norvegicus with 10 samples.

Results

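The genes that make, store and take back the catecholamines dopamine and noradrenaline, together with the dopamine receptors Drd3, Drd4 and Drd5, were followed in rats shortly after they inhaled an aroma compound. They were taken as every probe set that the platform annotation assigned to a single gene among Th, Ddc, Dbh, Slc18a2, Slc6a3, Slc6a2, Drd3, Drd4 and Drd5, which gave 15 probe sets for 9 genes out of 31042 probe sets and 14217 genes tested. Gene expression was measured on Affymetrix arrays, 1 array per animal, in the right side of the brain, cut at the midline. The DMHF group held 5 rats that breathed vapor of DMHF, a dimethyl hydroxy furanone with a sweet, fruit-like smell, and the control group held 5 rats that breathed vapor of distilled water. All 10 animals were male Wistar rats aged 7 weeks that inhaled for 5 min before the dark period and were killed after a rest of 10 min.

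Dopamine neurons are found mainly in the midbrain, and noradrenaline neurons in the locus coeruleus and other brainstem nuclei. Tyrosine hydroxylase (Th) sets the rate of synthesis, aromatic amino acid decarboxylase (Ddc) makes dopamine, and dopamine beta-hydroxylase (Dbh) turns dopamine into noradrenaline. The vesicular monoamine transporter Slc18a2 loads the transmitter into vesicles, and the plasma membrane transporters Slc6a3 and Slc6a2 take dopamine and noradrenaline back up. Ddc and Slc18a2 also serve serotonin neurons, and Slc18a2 serves histamine neurons as well. Drd3 and Drd4 belong to the D2 class of dopamine receptors, which lower cyclic AMP, and Drd5 belongs to the D1 class, which raises it. In RNA from a whole brain side, fewer cells of a type and less RNA per cell cannot be told apart.

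Deposited values lay between 5.25 and 14.22 and are read here as log2 expression, with higher values taken as more RNA. Differences between arrays were very small on that scale, with a median within-group SD of 2.17 millionths of a log2 unit over all probe sets. All differences below are therefore given in millionths of a deposited log2 unit relative to the control mean of the same probe set, and in within-group SDs of that probe set. They cannot be read as fold changes of RNA or compared between probe sets. Markers of neurons and oligodendrocytes stood near the top of the array range, at median percentiles of 99.3 and 99.9, with Snap25 at 13.34 and Mbp at 13.79 against a median level of 7.24. Astrocyte and microglial markers stood lower, at median percentiles of 87.4 and 72.7. Of the 15 catecholamine probe sets, 12 lay below the median level. No 2 arrays were identical, and array medians differed by at most 15.2 millionths.

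No catecholamine gene passed the test for a difference between DMHF and control rats. Over all 31042 probe sets, limma called 0 (0%) at an adjusted p under 0.05, with a smallest adjusted p of 0.698. Among the 15 catecholamine probe sets, 1 had an unadjusted p under 0.05, that of Drd5, against 1700 of all probe sets (5.48%) and 4.8% of all genes. Of the 1700, 1002 (3.23% of all probe sets) were nominally higher and 698 (2.25% of all probe sets) nominally lower in DMHF. The split was 208 higher and 333 lower once all arrays were given a common median. It was 450 higher and 154 lower after quantile normalization, which left 10076 probe sets to test. An exact two-sided permutation test per probe set also passed 0 after adjustment and listed 1595 (5.14%) before it. Of the 9 genes, each taken by its brightest probe set, 6 were nominally higher and 3 nominally lower, with a median moderated t of 0.353 against 0.0658 over all genes. For 12 of the 15 probe sets the group means lay within 1 within-group SD of each other, and the plot of values by rat shows the groups overlapping for 14 of 15. Over all probe sets 0.867% had groups without overlap, and the share with means within 1 SD was not computed.

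**Figure D1:**
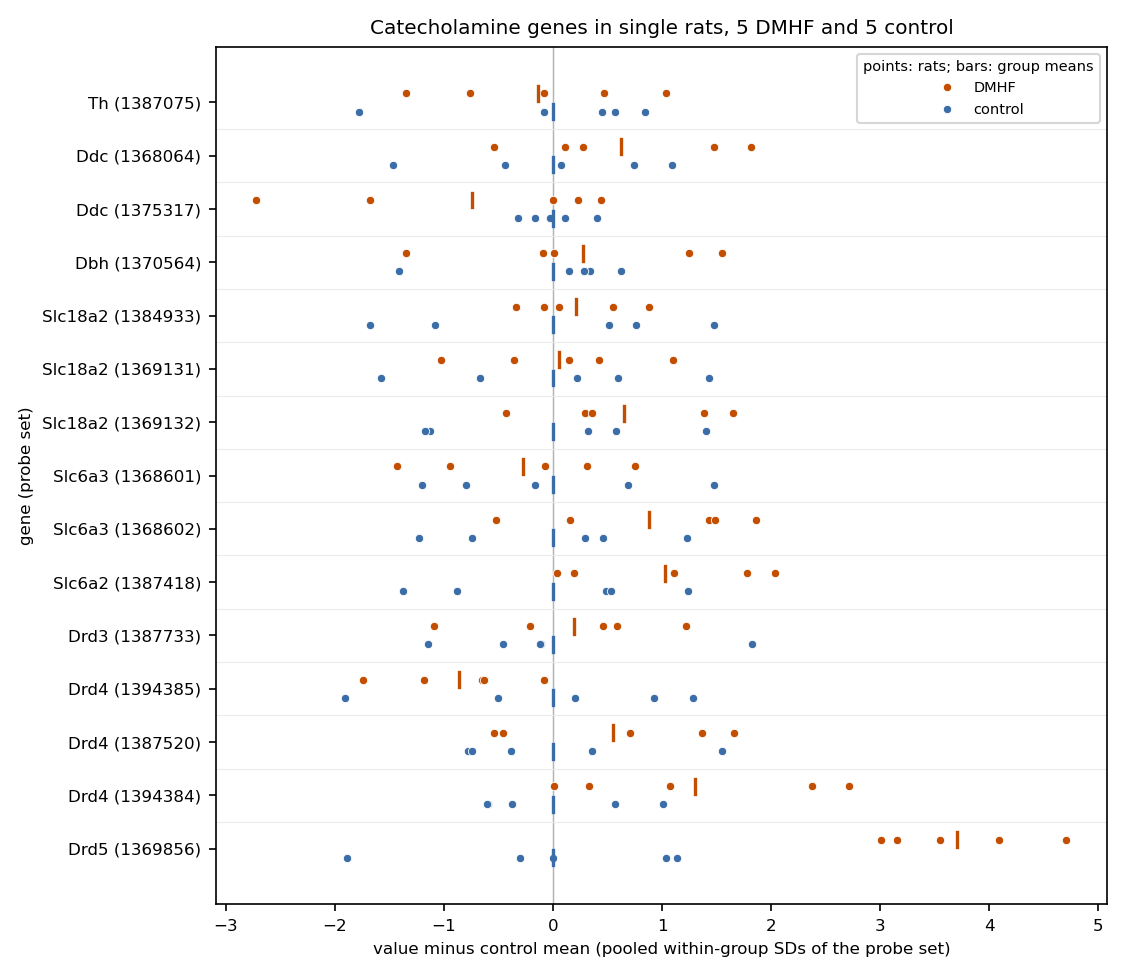
Each row is 1 probe set, named by its gene and its platform name, and each point is 1 rat, with DMHF above control. The horizontal axis gives the value minus the control mean in pooled within-group SDs, vertical bars are group means, and the 5 DMHF rats of Drd5 are the only ones that lie wholly outside the range of the 5 control rats.

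Th, the rate-limiting enzyme, did not differ between the groups beyond the spread between rats. In DMHF replicates 1 to 5 the Th probe set stood at 14.8, 6.65, -19.1, -1.22 and -10.7 millionths from the control mean, against 6.34, 12.0, -25.3, -1.11 and 8.03 in control replicates 1 to 5. Both groups ran from clearly negative to clearly positive values, and the lowest rat of each was replicate 3. The difference was -1.92 millionths (SE 8.54), or -0.136 SD with a 95% interval from -1.50 to 1.23 SD (limma adjusted p = 1; exact permutation p = 0.841). The SD was 13.5 in DMHF and 14.9 in control rats, which put the spread of Th at percentile 93.1 of all probe sets. With single arrays left out the difference ran from -8.24 without control replicate 3 to 2.36 without DMHF replicate 3.

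Ddc, the decarboxylase, did not differ between the groups beyond the spread between rats. Its brighter probe set stood at 563, 33.0, -168, 456 and 85.1 millionths in DMHF replicates 1 to 5, against 337, 230, -454, -136 and 23.1 in control rats. DMHF replicates 1 and 4 lay above every control rat, and the other 3 lay within the control range. The difference of 194 millionths (SE 186), or 0.626 SD, had a 95% interval from -0.738 to 1.99 SD (limma adjusted p = 1; exact permutation p = 0.349). With a within-group SD of 309 millionths, this probe set lay at percentile 99.7 of spread. Leaving out single arrays moved the difference from 80.2 without control replicate 3 to 284 without DMHF replicate 3.

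The dimmer Ddc probe set did not pass either. Its 5 control rats lay within -0.289 to 0.359 millionths of their mean, while DMHF replicates 1 and 5 stood at -2.44 and -1.50 and the other 3 DMHF rats between 0.0002 and 0.395. The SD was 1.24 in DMHF and 0.248 in control rats, and the difference was -0.667 millionths (SE 0.579; limma adjusted p = 0.995). Without DMHF replicate 1 it was -0.225, and without DMHF replicate 3 -0.933. Over the 10 arrays, with group means removed, this probe set and the brighter one correlated at r = -0.326 (permutation p = 0.366) and rho = -0.309 (permutation p = 0.388).

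Dbh, the enzyme specific to noradrenaline synthesis, differed by 1.87 millionths (SE 4.12), or 0.273 SD with a 95% interval from -1.09 to 1.64 SD (limma adjusted p = 1). Its values were 10.6, -0.640, -9.20, 0.0804 and 8.52 in DMHF rats, against 2.36, 1.03, 4.29, -9.65 and 1.97 in control rats. DMHF replicates 1 and 5 exceeded all control rats, and control replicate 4 lay lowest of all 10. The sign depended on single arrays, at -0.545 without control replicate 4 and 4.64 without DMHF replicate 3. The mean level of 6.27 was at percentile 16.2 of all probe sets.

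Slc18a2, the vesicular transporter, was measured by 3 probe sets that correlated with one another over the rats, and none of the 3 differences passed the test. The brightest stood at 13.9, -1.32, 0.884, 8.80 and -5.42 millionths in DMHF rats, against 23.5, 12.1, -26.6, 8.22 and -17.2 in control rats. All 5 DMHF rats lay inside the control range, with an SD of 7.84 in DMHF and 21.0 in control rats. Its difference was 3.37 millionths (SE 9.55), or 0.213 SD with a 95% interval from -1.15 to 1.58 SD (limma adjusted p = 1). Leaving out control replicate 3 gave -3.27, and leaving out control replicate 1 gave 9.25.

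The second brightest Slc18a2 probe set stood at 307, -99.7, -286, 116 and 41.8 millionths in DMHF rats, against 399, 166, -439, 60.7 and -187 in control rats. The difference was 16.0 millionths (SE 167; limma adjusted p = 1), and its sign turned without control replicate 3, where it was -93.6. The dimmest differed by 25.5 millionths (SE 23.5), or 0.652 SD with a 95% interval from -0.712 to 2.02 SD (limma adjusted p = 0.997). It was 13.99 without control replicate 5 and 39.3 without control replicate 1. The 3 possible pairs of these probe sets correlated over the 10 arrays at r = 0.891, 0.902 and 0.952, with permutation p values adjusted over 8 same-gene pairs of 0.0016, 0.00136 and 0.00024. Their rho values were 0.891, 0.879 and 0.952, with adjusted permutation p values of 0.004, 0.00419 and 0.00072. Without the 2 arrays farthest from the median, r stayed at 0.734, 0.862 and 0.946. The other 5 same-gene pairs, of Ddc, Slc6a3 and Drd4, did not pass, with r between -0.414 and 0.287.

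**Figure D2:**
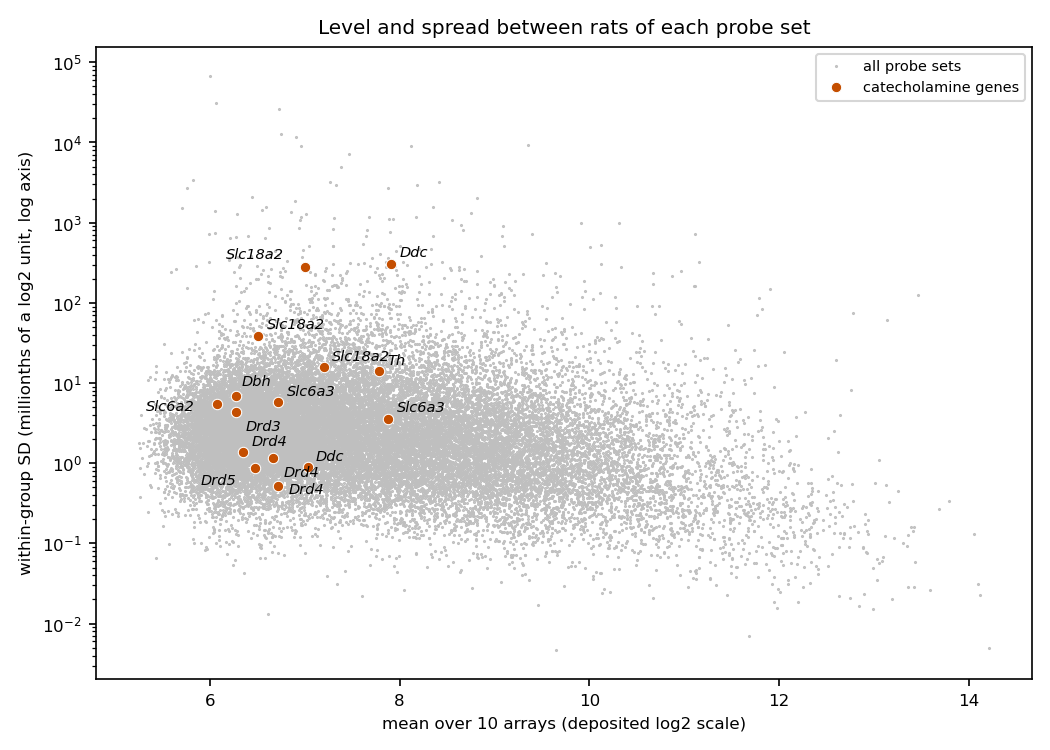
Each grey point is 1 of 31042 probe sets, with its mean over 10 arrays on the deposited log2 scale across and its within-group SD, in millionths on a log axis, upward. The 15 catecholamine probe sets are named by gene, and 1 probe set of Ddc and all 3 of Slc18a2 stand with Th above percentile 90 of spread, while the 3 of Drd4 and that of Drd5 stand below the middle.

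No pair of catecholamine genes passed the test of co-variation between rats at the brightest probe set of each gene. Of 36 pairs of the 9 genes, taken at their brightest probe sets with group means removed, 0 passed after adjustment over all pairs, and 4 had an unadjusted permutation p under 0.05. These were Th with Ddc, Ddc with Slc18a2, Th with Slc6a3 and Ddc with Slc6a3. The share of all gene pairs under that p was not computed, so 4 of 36 cannot be read as an excess. Th and Ddc correlated at r = 0.821 (permutation p = 0.00322, adjusted 0.116) and rho = 0.685 (permutation p = 0.0339, adjusted 0.606). Without control replicate 3 and DMHF replicate 3, the 2 arrays farthest from the median of Th, r was 0.545 (exact permutation p = 0.16). With 1 array left out at a time, r was lowest at 0.713 without control replicate 3 and highest at 0.915 without DMHF replicate 2. Of 14216 other genes, 0.788% followed Th as closely as Ddc did, and 2.24% followed Ddc as closely as Th did.

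Ddc and Slc18a2 correlated at r = 0.743 (permutation p = 0.0142, adjusted 0.256) and rho = 0.685 (permutation p = 0.0346, adjusted 0.606), and at r = 0.588 (exact permutation p = 0.126) without control replicate 3 and DMHF replicate 1. For this pair 5.70% of genes followed Ddc as closely as Slc18a2 did, and 2.32% followed Slc18a2 as closely as Ddc did. With the second brightest and the dimmest Slc18a2 probe sets, a comparison added after the values were seen, Ddc correlated at r = 0.899 (permutation p = 0.00057, adjusted over 6 such pairs 0.00342) and r = 0.845 (permutation p = 0.00345, adjusted 0.0103). Their rho values were 0.891 (permutation p = 0.00116, adjusted 0.00696) and 0.794 (permutation p = 0.00861, adjusted 0.0258). Without the 2 farthest arrays these r values were 0.826 and 0.953. The 6 pairs were chosen after the values were seen, from genes with a high r in the same arrays, so their adjusted p values are descriptions. For Ddc with the brightest Slc18a2 probe set the adjusted permutation p was 0.027 over these 6 pairs, against 0.256 over 36. Th correlated with the 3 Slc18a2 probe sets, brightest first at r = 0.598, 0.726 and 0.614 and rho = 0.515, 0.624 and 0.442 (permutation p of r adjusted over the same 6 pairs = 0.0688, 0.027 and 0.0688; of rho 0.162, 0.0911 and 0.205). In the family of 36 pairs Th with Slc18a2 had an adjusted permutation p of 0.483, and r was 0.283 without control replicate 3 and DMHF replicate 3. Control replicate 3 was the lowest rat for Ddc, for Th and for 2 of the 3 Slc18a2 probe sets, as the plot against Ddc shows. Th with Slc6a3 gave r = 0.696 and rho = 0.648, and Ddc with Slc6a3 r = 0.647 and rho = 0.564 (adjusted permutation p of r = 0.328 and 0.426). Slc6a3 was matched or exceeded by 4.33% of genes in following Th and by 11% in following Ddc. In following Slc6a3, Th was matched or exceeded by 1.53% of genes and Ddc by 2.5%.

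**Figure D3:**
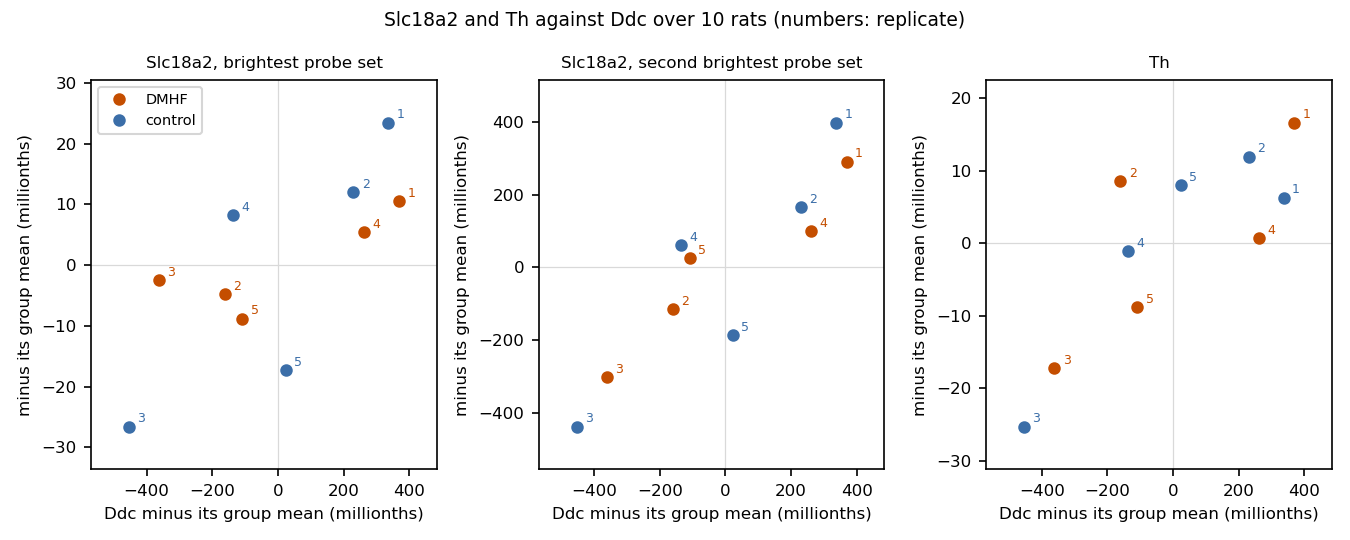
Each point is 1 rat, with its replicate number, at the value of the brighter Ddc probe set across and the value of 2 Slc18a2 probe sets or Th upward, each minus its own group mean in millionths of a deposited log2 unit. The points climb from lower left to upper right in each panel, with r = 0.743, 0.899 and 0.821.

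The sequences before the transcription starts of these 3 genes are shown because Th with Ddc and Ddc with Slc18a2 had the highest r of the gene pairs. Th with Slc18a2 did not rank next, since Th with Slc6a3 and Ddc with Slc6a3 had a higher r at the brightest probe sets. They are the 250 bases before each annotated start in RefSeq, assembly GRCr8, 5′ to 3′ on the gene's strand. Capitals mark 3 motifs searched on both strands: the cAMP response element TGACGTCA, bound by Creb-family factors, the GC box GGGCGG, bound by Sp1-family factors, and AAAGGTCA, the element of nuclear receptors of the Nr4a family. No 2 of the marked motifs overlap in the windows shown.
Th, GRCr8, chr1:207508219-207508468, strand -: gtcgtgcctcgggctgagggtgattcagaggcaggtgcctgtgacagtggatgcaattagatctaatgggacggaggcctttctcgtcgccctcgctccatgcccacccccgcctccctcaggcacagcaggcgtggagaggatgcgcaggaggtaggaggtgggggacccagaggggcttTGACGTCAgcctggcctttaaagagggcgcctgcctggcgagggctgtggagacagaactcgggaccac
Slc18a2, GRCr8, chr1:268399771-268400020, strand +: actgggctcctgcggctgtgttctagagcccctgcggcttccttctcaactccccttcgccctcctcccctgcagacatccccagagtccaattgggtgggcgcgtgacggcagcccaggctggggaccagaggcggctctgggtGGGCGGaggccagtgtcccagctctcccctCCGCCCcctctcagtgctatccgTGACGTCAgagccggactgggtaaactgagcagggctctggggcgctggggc
Ddc, the first of its windows, GRCr8, chr14:90682784-90683033, strand -: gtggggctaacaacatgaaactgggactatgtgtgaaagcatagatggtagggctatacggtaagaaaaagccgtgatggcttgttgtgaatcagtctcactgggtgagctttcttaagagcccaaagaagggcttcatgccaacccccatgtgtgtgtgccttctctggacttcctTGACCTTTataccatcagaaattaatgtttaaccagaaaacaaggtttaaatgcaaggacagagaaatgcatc

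Th and Slc18a2 each held 1 cAMP response element, 69 to 62 bases before the start in Th and 52 to 45 in Slc18a2. Of 33469 RefSeq windows of the same length, 1.59% held this motif. Ddc has 3 annotated windows, of which the one shown held the Nr4a element once, 73 to 66 bases before the start on the opposite strand, and the others held none of the 3 motifs. That element occurred in 1.24% of windows. The window of Slc18a2 held 2 GC boxes, a motif of 30.5% of windows. The window of Slc6a3, not shown, held 3 GC boxes and no cAMP response element. At the brightest probe sets Slc6a3 correlated with Th at r = 0.696, against 0.598 for Slc18a2 with Th. The windows of Dbh, Drd3 and Drd4 held none of the motifs. These matches are descriptions of the letters and were not tested as sites.

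The dopamine transporter Slc6a3 was measured by 2 probe sets that did not follow each other (r = -0.414, permutation p = 0.229; rho = -0.236, permutation p = 0.514). The brighter stood at 1.14, 2.71, -5.14, -0.253 and -3.40 millionths in DMHF rats, against 5.32, -0.582, -2.89, -4.34 and 2.48 in control rats. The difference was -0.989 millionths (SE 2.18), or -0.275 SD with a 95% interval from -1.65 to 1.10 SD (limma adjusted p = 1). The dimmer stood at 0.899, 8.34, 10.8, -3.02 and 8.62 in DMHF rats, against -7.15, -4.34, 1.69, 2.66 and 7.15 in control rats. There 3 of 5 DMHF rats lay above all control rats, and the difference of 5.13 millionths (SE 3.50), or 0.883 SD, did not pass (limma adjusted p = 0.969). It was 46.8 millionths (SE 19.6) after quantile normalization, which did not pass either (limma adjusted p = 0.747).

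The noradrenaline transporter Slc6a2 stood at 1.05, 9.65, 6.01, 11.1 and 0.215 millionths in DMHF rats, against -4.76, 2.64, 6.73, 2.87 and -7.47 in control rats. DMHF replicates 2 and 4 lay above all control rats and no DMHF rat lay below the control mean. The difference of 5.60 millionths (SE 3.27), or 1.03 SD with a 95% interval from -0.335 to 2.40 SD, did not pass (limma adjusted p = 0.95; exact permutation p = 0.143). With single arrays left out the lowest value was 3.73 (control replicate 5 removed) and the highest 7.28 (control replicate 3 removed). The mean level of 6.07 was at percentile 8.72 of all probe sets.

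Among the receptors, Drd5 was the member whose groups lay furthest apart. Its values were 3.10, 3.58, 2.63, 4.12 and 2.76 millionths in DMHF rats, against -1.65, 0.997, 0.0036, -0.260 and 0.908 in control rats. The lowest DMHF rat exceeded the highest control rat, which held for 0.535% of all probe sets, with 0.332% showing the reverse. The SD was 0.613 in DMHF and 1.07 in control rats, and the gap between the lowest DMHF and the highest control rat exceeded both. The difference was 3.24 millionths (SE 0.567), or 3.70 SD with a 95% interval from 2.23 to 5.18 SD. It ranked 11th of 31042 probe sets by p and did not pass (unadjusted p = 0.000312, limma adjusted p = 0.698; exact permutation p = 0.00794, the smallest the design allows). Leaving out control replicate 1 gave 2.82 and leaving out control replicate 2 gave 3.49, the ends of the range, and the smallest adjusted p on leaving out 1 array was 0.488.

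The deposited level of Drd5, 6.47, lay at percentile 24.4, and its spread at percentile 21.8. Its SD was far below the 15.2 millionths by which array medians differed, and with a common array median the difference was 3.19 millionths with an SE of 2.99. Of all genes, 53% were nominally higher in DMHF, against 6 of 7 pituitary, 5 of 5 choroid plexus and 5 of 6 pineal markers, with 0 of these past the test. Olfactory bulb markers (3 of 3), noradrenaline markers (3 of 3, Dbh and Slc6a2 among them) and astrocyte markers (3 of 4) were also mostly nominally higher. So were serotonin and histamine markers (2 of 2 each), adrenal medulla markers (2 of 3) and neuron markers (3 of 5). Midbrain dopamine markers (1 of 4, with Th, Slc6a3 and Aldh1a1 lower), oligodendrocyte markers (1 of 3), microglial markers (2 of 4), blood markers (1 of 2) and striatal markers (0 of 3) were not. Summed levels, in SDs of each gene from the control mean, ran from 1.58 to 12.3 in DMHF and -8.06 to 3.99 in control rats for pituitary. The ranges were -0.787 to 10.6 in DMHF and -6.74 to 5.63 in control rats for choroid plexus. For the pineal markers they were -2.51 to 7.85 in DMHF and -5.66 to 5.97 in control rats. The median levels of the pituitary, choroid plexus and pineal markers were at percentiles 23.5, 59.8 and 16.9 of all probe sets, and their part in the Drd5 difference was not tested. The window before the Drd5 start, shown for the gene that ranked highest by p, held 2 GC boxes, in capitals, and neither of the other motifs.
Drd5, GRCr8, chr14:76703345-76703594, strand -: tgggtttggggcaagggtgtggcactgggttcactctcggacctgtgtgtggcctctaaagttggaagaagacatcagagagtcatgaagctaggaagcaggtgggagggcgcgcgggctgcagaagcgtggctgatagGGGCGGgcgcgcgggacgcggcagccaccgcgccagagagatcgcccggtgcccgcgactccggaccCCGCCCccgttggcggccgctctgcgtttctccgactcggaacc

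Drd3, a receptor of the ventral striatum, stood at -0.899, 5.28, 2.52, 1.98 and -4.72 millionths in DMHF rats, against -0.477, -1.96, 7.89, -4.94 and -0.513 in control rats. All 5 DMHF rats lay inside the control range, and the difference was 0.832 millionths (SE 2.60), or 0.193 SD with a 95% interval from -1.18 to 1.56 SD (limma adjusted p = 1).

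Drd4 was measured by 3 probe sets that did not follow one another, with r of -0.347, 0.0970 and 0.287 and rho of -0.588, 0.0303 and 0.321 (adjusted permutation p of r from 0.471 to 0.794). The brightest carries the suffix that Affymetrix gives to probes shared by several transcripts. It stood at -0.345, -0.624, -0.916, -0.0428 and -0.334 millionths in DMHF rats, against 0.107, -0.266, 0.486, 0.674 and -1.002 in control rats. Every DMHF rat was below the control mean and above the lowest control rat, and the difference was -0.452 millionths (SE 0.381; limma adjusted p = 0.994). It was -0.284 without control replicate 4 and -0.703 without control replicate 5. The dimmest had the other sign, with 0.458, 3.25, 3.71, 1.47 and 0.0108 in DMHF rats, against -0.511, -0.819, 1.37, 0.781 and -0.824 in control rats. There 3 of 5 DMHF rats exceeded all control rats, and the difference of 1.78 millionths (SE 0.849), or 1.30 SD, did not pass (limma adjusted p = 0.931). The remaining probe set differed by 0.637 millionths (SE 0.732; limma adjusted p = 1), by 0.312 without DMHF replicate 2 and by 1.09 without control replicate 2.

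**Figure D4:**
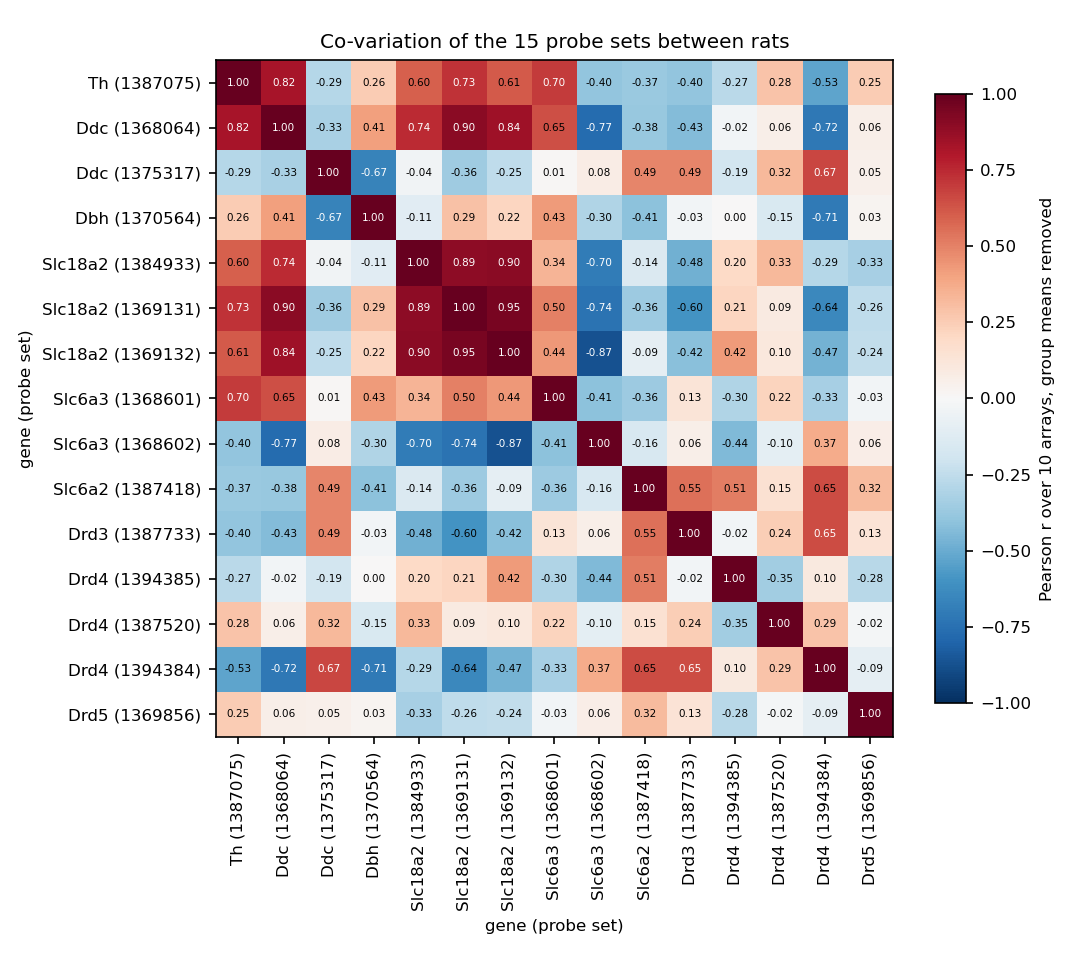
Each cell gives Pearson's r between 2 of the 15 probe sets over the 10 arrays, with group means removed, from blue at -1 to red at 1. The probe sets of Th, Slc18a2 and the brighter one of Ddc form a red block, the brighter Slc6a3 probe set is red and the dimmer one blue against that block (with Ddc, r = 0.647 and -0.767), and the pairs of Drd4 probe sets are pale.

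The genes whose values ran most like each member over the 10 arrays, with group means removed, were searched among 13974 named genes and are a description. Th was followed most closely by Taf10, a subunit of the general transcription factor TFIID (r = 0.975, rho = 0.952), and by Prmt6, an arginine methyltransferase (r = 0.960, rho = 0.976). Ddc was followed by the tetraspanin Cd63 (r = 0.973, rho = 0.964) and by Get1 (r = 0.971, rho = 0.964), and Slc18a2 by the co-chaperone Stip1 (r = 0.975, rho = 0.964) and the calcium-binding protein S100a6 (r = 0.958, rho = 0.952). Dbh was nearest to Ephx2, an epoxide hydrolase (r = 0.963, rho = 0.915), and Rab32 (r = 0.941, rho = 0.867). Slc6a2 was nearest to Afap1 (r = 0.952, rho = 0.952) and Gkn2 (r = 0.937, rho = 0.915), and Slc6a3 to Xxylt1 (r = 0.905, rho = 0.879) and Havcr1 (r = 0.896, rho = 0.855). For the receptors they were Pgls (r = 0.961, rho = 0.952) and Foxd3 (r = 0.951, rho = 0.915) with Drd3, Fitm2 (r = 0.950, rho = 0.927) and Nol12 (r = 0.936, rho = 0.903) with Drd4, and Zfp358 (r = 0.944, rho = 0.879) and Gas2l1 (r = 0.940, rho = 0.915) with Drd5. An r of at least 0.9 was reached by 55 genes with Ddc, 15 with Drd3, 14 with Slc18a2, 10 each with Th and Drd4, 9 with Slc6a2, 8 with Dbh, 6 with Drd5 and 1 with Slc6a3. All these values come from the same 10 arrays.

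Other genes of the pathway, in 7 lists of which 50 genes were measured, held 0 genes past the test, and 53% of all 14217 genes were nominally higher in DMHF. Enzymes that supply tetrahydrobiopterin, the cofactor of Th, were split at 2 nominally higher and 2 lower of 4 measured, with a median moderated t of 0.308. Gchfr, which inhibits the first enzyme of that route, differed by 3.31 millionths (SE 0.933; limma adjusted p = 0.776), that enzyme Gch1 by 142 (SE 118) and Pts by -0.543 (SE 0.597). Of 6 breakdown enzymes, 2 were nominally higher, with a median t of -0.135. Monoamine oxidase B (Maob) differed by 5.25 millionths (SE 3.03), Akr1b1 by 0.816 (SE 0.631) and Aldh2 by -0.533 (SE 0.871). All 4 measured genes of other vesicular transport and synthesis were nominally higher, with a median t of 0.292, among them Slc18a1 at 1.53 (SE 1.94), Cyb561 at 0.555 (SE 1.64) and the acetylcholine transporter Slc18a3 at 0.851 (SE 3.47).

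On the receiving side, 8 of 9 measured genes of the major dopamine receptors and their striatal signalling were nominally lower, with a median moderated t of -0.743. Where the probe set with the largest moderated t in size stood for each gene, 2 of 9 were nominally higher. Rgs9, which speeds the shutdown of G proteins, differed by -3.62 millionths (SE 3.10) and adenylyl cyclase 5 (Adcy5) by -1.07 (SE 1.08), whereas Gnal, the stimulatory G protein subunit of striatum and olfactory epithelium, differed by 2.92 (SE 1.84). The summed level of that list ran from -11.3 to 5.49 SD in DMHF rats and from -6.96 to 8.76 in control rats, which overlap widely. Adrenoceptors were split at 4 and 4 of 8, with Adra2b at 3.17 millionths (SE 1.71), Adra1a at 0.993 (SE 0.801) and Adra2c at -1.98 (SE 1.83) and a median t of -0.0395.

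Transcription factors of catecholamine neurons were nominally higher for 6 of 8 measured genes, with a median moderated t of 1.27 and 0 past the test. Phox2a, the regulator of noradrenaline neurons, differed by 3.396 millionths (SE 1.01), or 2.06 SD (limma adjusted p = 0.807). Pitx3, required by midbrain dopamine neurons, differed by 5.26 millionths (SE 2.29; limma adjusted p = 0.9), and Gata3 by 0.818 (SE 0.537). Their deposited levels were 6.28, 6.23 and 6.58, below the median level of 7.24. Of 11 measured markers of midbrain dopamine neurons and their growth factor signalling, 7 were nominally higher, with a median t of 0.633, and 10 where the probe set with the largest moderated t in size stood for each gene. The nicotinic receptor subunit Chrna6 differed by 3.73 millionths (SE 0.857), or 2.71 SD (limma adjusted p = 0.73), the GDNF co-receptor Gfra1 by 2.98 (SE 1.29) and the vesicular protein Slc10a4 by 5.50 (SE 2.77). Th and Slc6a3, the defining genes of those neurons, stood at -0.136 and -0.275 SD in the same rats, and the dimmer Slc6a3 probe set at 0.883 SD.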

How the data were processed

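Per the labels' protocols, RNA from the right brain side was extracted with ISOGEN II, cleaned with an RNeasy kit and turned into biotinylated cRNA with a 3′ IVT kit. The authors deposited 1 table of processed values, read here as log2, with 31099 probe sets and 10 arrays. The submitters' processing notes name R 2.7.2. For background correction, normalization, summary method, log base and the small size of the differences between arrays, the sources used here give nothing, and log2 was taken from the range. The number of arrays limits the precision.

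The 57 control probe sets were left out. Names come from the platform annotation of GEO: 20826 probe sets named 1 gene, 436 several and 9780 none, and the brightest probe set stood for a gene. DMHF was compared with control in R 4.3.3 with limma 3.58.1 (two-sided moderated test of lmFit and eBayes, Benjamini-Hochberg over 31042 probe sets, threshold 0.05, prior degrees of freedom 0.841). The moderated SE can exceed the own spread of a probe set. Permutation tests of correlations used 100000 resamples, or all orders for 8 or 9 arrays, which is called exact here. Values with group means removed were permuted over all arrays without regard to group, so these p values are approximate. The scripts were tested on simulated data.

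The members and gene lists were chosen with earlier results of these data known. Every member was named, with the 3 genes of smallest p per list and the 2 genes most like each member. Samples were grouped by title, and nothing in the sources used here ties them to litters, cages or scan batches. The fits were repeated with each array left out, with other probe sets of a gene, by exact permutation, with a trended and robust variance, on bright probe sets alone, after setting array medians equal or quantile normalization, and with replicate number blocked.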

Additional observations from a re-analysis of the deposited data

Results flagged for a closer look

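Control replicate 4 stood apart for Dbh. Its value was -9.65 millionths from the control mean, while the other 4 control rats lay between 1.03 and 4.29. The gap to the nearest rat was 0.766 of the range of the group, above Dixon's critical value of 0.71 for 5 samples. Of 30 groups tested, 15 probe sets in each of 2 groups, this was the 1 that exceeded it, and chance gives about 1 in 20. Without this rat the Dbh difference was -0.545 millionths in place of 1.87.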

How the results depend on the processing

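The count of 0 probe sets past the threshold held with a replicate block, on the brighter 15521 probe sets, and with a common array median, a trended and robust variance and exact permutation. Quantile normalization, which left 10076 probe sets to test, gave 13, none of them a catecholamine gene (the cause was not tested), and single arrays left out gave 0 to 1, the 1 being Irgq without DMHF replicate 2. At an unadjusted p under 0.05 a common array median listed 541 and quantile normalization 604 probe sets, against 1700. Same-numbered control and DMHF rats correlated over probe sets, with group means removed, at 0.0288 to 0.273, and 3 of 5 matched their own number best. Whether the numbers pair the rats was not tested. With the replicate block the unadjusted count was 2217 and Drd5 stood at 3.24 millionths (limma adjusted p = 0.505). The block gave Th an SE of 4.42 in place of 8.54 millionths, and Drd5 an SE of 0.577 in place of 0.567.

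Block, variance model and probe set filter leave a difference as it is by construction and change its error alone. Quantile normalization kept 6 of the 15 probe sets, since a probe set was dropped where its values became the same on all 10 arrays. Th, Dbh, the brightest Slc18a2 probe set and Drd5 were among those dropped. Of the 6 kept, the sign of 1 turned, that of the brightest Drd4 probe set, at 16.7 millionths. It moved the dimmer Slc6a3 probe set to 46.8, Drd3 to 4.08 and Slc6a2 to 3.08 (the cause was not tested). With single arrays left out 9 probe sets kept their sign and 6 did not: Th ran from -8.24 to 2.36, Dbh from -0.545 to 4.64, Slc18a2 from -3.27 to 9.25 on the brightest and from -93.6 to 116 on the second brightest probe set, the brighter Slc6a3 probe set from -2.07 to 0.342 and Drd3 from -0.402 to 2.80. The further probe sets had the other sign for Ddc (-0.667), Slc6a3 (5.13) and Drd4 (0.637 and 1.78).

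Of 36 gene pairs, 0 passed as deposited, uncentred or without the 2 farthest arrays, and 0 to 1 with single arrays left out: Ddc with Slc18a2 without control replicate 5 (r = 0.837, adjusted exact permutation p = 0.0471) and Th with Ddc without DMHF replicate 2 (r = 0.915, adjusted exact permutation p = 0.016). A common array median passed 3 pairs, Drd3 with Drd4 (r = 0.786), Drd3 with Drd5 (0.781) and Drd4 with Drd5 (0.973). The spread of these probe sets, 4.31, 0.526 and 0.873 millionths, is below the largest gap between array medians, 15.2. This setting removes that gap by shifting every probe set of an array alike. Under it r was 0.706 for Th with Ddc, 0.758 for Ddc with Slc18a2 and 0.0599 for Ddc with Slc6a3.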

Other observations

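Each of the 9 genes was also set against 94 measured genes of the pathway and marker lists over the 10 arrays, with group means removed, a comparison added after the values were seen. Of 846 pairs, 0 passed after adjustment (smallest adjusted permutation p = 0.146), and 98 had an unadjusted permutation p under 0.05. The share of all gene pairs under that p was not computed, so this count cannot be read as an excess. Slc18a2, at its brightest probe set, ran with Slc6a4, the serotonin transporter, at r = 0.870 (permutation p = 0.00106, adjusted 0.146) and rho = 0.794 (permutation p = 0.00865, adjusted 0.286), and at r = 0.766 without the 2 farthest arrays. It ran with Slc10a4 at r = 0.864 (permutation p = 0.00128, adjusted 0.146) and rho = 0.891 (permutation p = 0.00124, adjusted 0.175). Ddc ran with En2, a transcription factor of midbrain and cerebellum, at r = 0.873 (permutation p = 0.0012, adjusted 0.146) and rho = 0.915 (permutation p = 0.00042, adjusted 0.175). Slc6a3 ran against Nr4a2, a transcription factor that dopamine neurons need, at r = -0.828 (permutation p = 0.00445, adjusted 0.244) and rho = -0.806 (permutation p = 0.00782, adjusted 0.286). These pairs were picked from among those with a large r after the values were seen. They are not simply the largest, since further pairs not named here had a smaller adjusted p than Slc6a3 with Nr4a2.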
